A study of Homo sapiens with 5 samples.

Results

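HL60 is a human promyelocytic leukaemia cell line that can be driven down different myeloid paths in culture. All-trans retinoic acid (ATRA), the vitamin A derivative that acts through retinoic acid receptors, turns it towards neutrophil-like granulocytes, and the phorbol ester TPA, which activates protein kinase C, turns it towards adherent, macrophage-like cells. The contact map of ATRA-treated HL60 cells was compared directly with that of TPA-treated HL60 cells, with the untreated cells of the series left aside. The comparison took 3 of the 5 samples of the series, 1 treated with ATRA and 2 treated with TPA. The ATRA sample had a contact matrix of its own, and the 2 TPA samples shared 1 merged matrix, so each treatment was a single measurement. Differences between cultures or libraries and differences between treatments cannot be told apart in this design. The sources used here give neither dose nor time. Contact data hold no marker RNA or protein, so the granulocytic and macrophage-like state of the cells was not checked.

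Hi-C joins pieces of DNA that lie close together in the fixed nucleus and counts each joined pair as a contact. Contacts within a chromosome fall with distance along it, and contacts between chromosomes are rarer per pair of sites. On the scale of megabases, open and gene-rich chromatin (compartment A) meets itself, and closed, gene-poor chromatin (compartment B) meets itself at the nuclear edge. In interphase nuclei small gene-rich chromosomes such as 17, 19 and 22 tend to lie towards the centre, and gene-poor ones such as 18 towards the edge. Mature neutrophils are known for lobed nuclei and macrophages for round or oval ones.

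The members were the 5773 autosomal bins of 500 kb (hg19) among 6203 bins in all. Contacts were present in 5430 of them, and 5349 had enough coverage for the compartment and bin comparisons. The ATRA matrix held 9254681 autosomal contacts and the TPA matrix 10034727, with a median of 3286 and 3488 contacts per bin. The mean count per pair of bins was 0.555 and 0.602, so sums over chromosomes, distances and compartments were compared and single bin pairs were not. Intervals in the text are 95% intervals for counting error. They contain no variation between cultures, and no p-value can be given with 1 matrix per treatment.

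ATRA-treated cells had fewer of their contacts within chromosomes than TPA-treated cells, and the difference ran the same way on every autosome. Of all autosomal contacts, 32.1% (interval 32.1 to 32.2) joined sites of the same chromosome in ATRA and 36.9% (36.8 to 36.9) in TPA. The difference was -4.74 percentage points (-4.78 to -4.69), an odds ratio of 0.811 for contacts within over contacts between chromosomes. Contacts inside a single bin made up 6.11% of the ATRA and 7.20% of the TPA total. As a share of the contacts within chromosomes they were nearer to each other, at 19% and 19.5%. The share within chromosomes was lower in ATRA on 22 of 22 autosomes, with all 22 intervals below 0.

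The size of that difference varied with the chromosome. Chromosome 10 had the largest gap, with 20.1% of its contacts within itself in ATRA and 24.9% in TPA, a difference of -4.77 points. Chromosomes 2 and 11 followed with -4.55 and -4.11 points. The smallest gaps were on the small chromosomes 17, 22 and 21, at -1.20, -1.33 and -1.43 points. Chromosome 17 held 18.7% of its contacts within itself in ATRA and 19.9% in TPA. The odds ratios of chromosomes 17, 22 and 19 were 0.926, 0.920 and 0.904, against a median of 0.807 over the 22 autosomes.

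**Figure D1:**
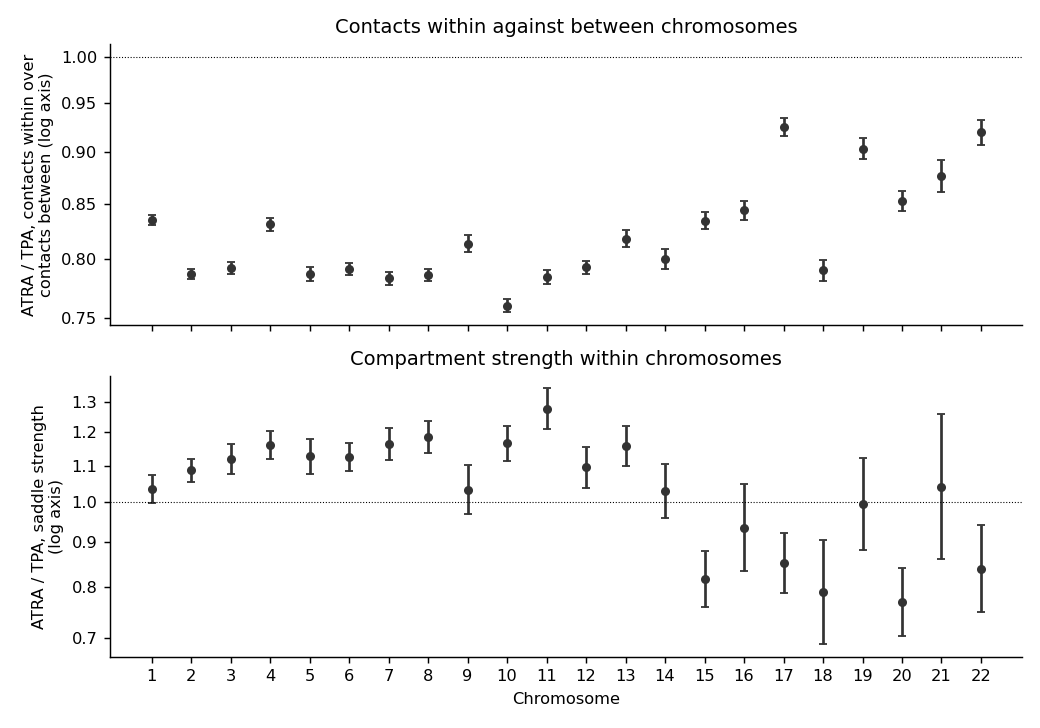
The upper panel plots, for each autosome, the ratio ATRA over TPA of the odds of a contact within the chromosome, and the lower panel the ratio ATRA over TPA of saddle strength, the separation of A from B within the chromosome. Points are the 2 matrices' ratios, bars are 95% counting intervals, both axes are logarithmic, and all 22 points of the upper panel lie below 1 while the lower panel lies above 1 on 15 chromosomes.

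Contacts with mitochondrial DNA and contacts at pairs of segments that met very often also differed. Contacts of autosomal bins with the mitochondrial genome, which lies outside the nucleus, numbered 7846 in ATRA and 6478 in TPA, or 0.0848% and 0.0646% of the number of autosomal contacts. Their ratio was 1.31 (1.27 to 1.36). Apart from these, 27 pairs of segments from different chromosomes met at 10 or more times the frequency given by their coverage, and are called joined segments here. The HL60 genome is known to be rearranged. The joined segments held 5604 contacts in ATRA and 7351 in TPA, a ratio of 0.827 (0.798 to 0.856) per autosomal contact. Per contact between bins of a chromosome the ratio was 0.942 (0.910 to 0.976), and observed over expected contacts were lower in ATRA at 18 of the 27. The part of the mitochondrial and joined-segment values in the difference within chromosomes was not tested.

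Along a chromosome, the ATRA map had relatively fewer contacts at middle distances and relatively more at the shortest and longest distances. Per contact between bins of a chromosome, the ratio of ATRA to TPA was 1.03 (1.02 to 1.03) for neighbouring bins, 0.5 Mb apart, and 1.01 (1.01 to 1.02) at 1 to 2 Mb. It fell to 0.944 (0.940 to 0.948) at 2 to 5 Mb and 0.915 (0.911 to 0.920) at 5 to 10 Mb. It was 0.972 at 10 to 20 Mb, 1.05 (1.05 to 1.05) at 20 to 50 Mb and 1.04 (1.03 to 1.04) beyond 50 Mb. At 2 to 5 Mb the share was higher in ATRA on 0 of 22 chromosomes, and at 5 to 10 Mb on 2 of 22. At 20 to 50 Mb it was higher in ATRA on 18 of 22. Per autosomal contact, a scale that also carries the lower share within chromosomes, every distance class was below 1. That ratio ran from 0.803 at 5 to 10 Mb to 0.920 at 20 to 50 Mb.

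The highest and lowest ratios of the distance classes fell on chromosomes 4, 16, 19, 21 and 22. Chromosome 4 had the lowest ratio at 2 to 5 Mb, 0.857, and at 5 to 10 Mb, 0.838. Chromosome 21 had the highest ratio at 1 to 2 Mb, 1.13 (1.09 to 1.17), and the lowest at 20 to 50 Mb, 0.646 (0.576 to 0.725). Chromosome 22 had the highest ratio at 10 to 20 Mb, 1.08 (1.04 to 1.12), and the lowest for neighbouring bins, 0.953. Chromosome 19 had the highest ratio for neighbouring bins, 1.08, and the lowest beyond 50 Mb, 0.817. Chromosome 16 had the highest ratios at 20 to 50 Mb, 1.12, and beyond 50 Mb, 1.17.

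The share of these contacts that spanned less than 2 Mb was 28.3% in ATRA and 27.7% in TPA, a difference of 0.607 points (0.530 to 0.683). It was 1.58 points with balanced contacts and 0.116 points with contacts inside a bin included. The share was higher in ATRA on 19 of 22 chromosomes, and the interval lay above 0 on 15 and below 0 on 3. Chromosome 21 led with 55.3% in ATRA and 50.7% in TPA, and chromosome 19 followed with 42.3% and 39.8%. Chromosome 22 lay furthest the other way, with 44.0% in ATRA and 45.6% in TPA. The median slope of contacts on distance at 1 to 10 Mb, on log axes, was -0.97 in ATRA and -0.93 in TPA, and the decay was steeper in ATRA on 19 of 22 chromosomes. At 10 to 50 Mb the median slopes were -0.55 and -0.64, and the decay was shallower in ATRA on 16 of 20 chromosomes.

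The deficit of ATRA at middle distances was largest in closed chromatin. Between B bins, the ratio was 0.889 (0.880 to 0.898) at 2 to 5 Mb, with 0 of 22 chromosomes higher in ATRA, and 0.877 (0.867 to 0.887) at 5 to 10 Mb. Between A bins it was 0.967 (0.958 to 0.977) and 0.944 (0.932 to 0.956) at the same distances. At 1 to 2 Mb the A pairs stood above 1, at 1.04, and the B pairs below it, at 0.944. At 20 to 50 Mb both classes were above 1, at 1.06 for A and 1.03 for B. Which bins are A and B was taken from the sum of both matrices, as described with the compartments.

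**Figure D2:**
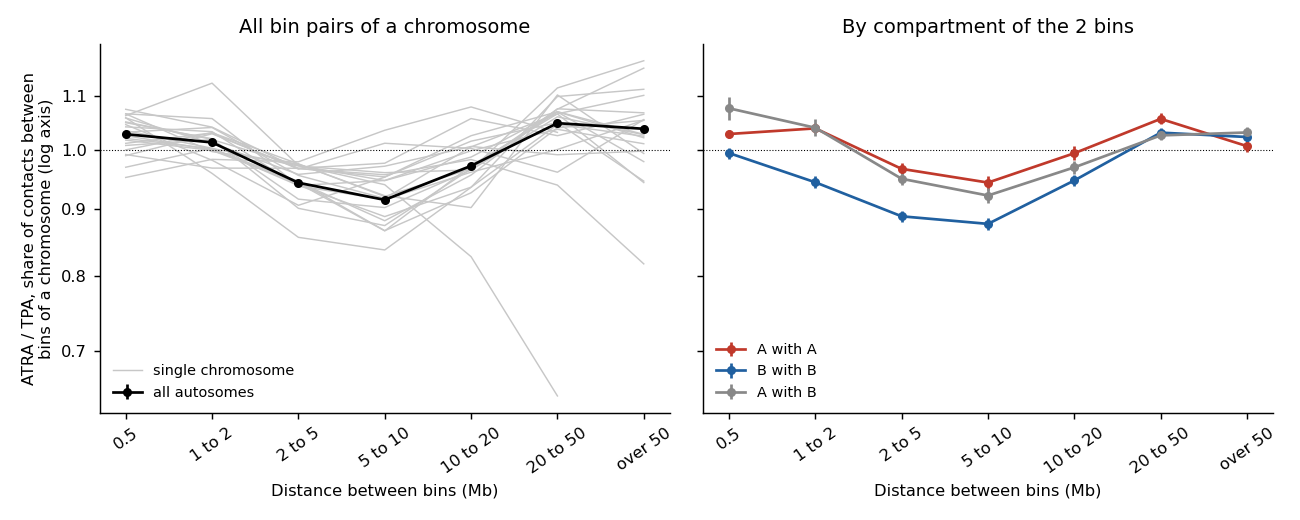
Ratio of ATRA to TPA of the share of contacts between bins of a chromosome, by distance between the bins in Mb, for all bin pairs with single chromosomes in grey (left) and by compartment of the bins (right); bars are 95% counting intervals and the vertical axis is logarithmic. The black line dips to 0.915 at 5 to 10 Mb and stands at 1.05 at 20 to 50 Mb, B pairs dip to 0.877, and the grey line that falls to 0.646 is chromosome 21.

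Contacts across the centromere hardly differed in sum but did so in both directions on single chromosomes. Set against contacts within an arm at the same distance, they stood at 0.841 in ATRA and 0.833 in TPA, a ratio of 1.01 (1.00 to 1.02) over 17 chromosomes. The ratio was above 1 beyond counting error on 7 of them, led by the small chromosomes 20 (1.23), 18 (1.15) and 19 (1.14). It was below 1 beyond counting error on 4, which included chromosomes 4 (0.869), 6 (0.909) and 8 (0.945).

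The pattern of contacts between pairs of chromosomes was largely shared between the treatments. For every pair of the 22 autosomes, contacts were set against the number that the totals of both chromosomes would give. A pair counted as different past 1.1-fold with an interval clear of 0 on the log2 scale. By this rule 1 pair was higher in ATRA (0.433% of pairs) and 2 were lower (0.866%). Across all pairs the log2 values of ATRA and TPA correlated at r = 0.964, a description across pairs that share chromosomes. Their spread was narrower in ATRA, with an SD of 0.163 against 0.181, and the slope of ATRA on TPA was 0.868. Some pairs carry joined segments, found in the sum of both matrices, and the part of these in the correlation was not tested.

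Chromosomes 20 and 22 were the pair past the rule with a higher value in ATRA relative to coverage, but with an expectation taken from the number of bins their log2 ratio was -0.08. They met 8325 times in ATRA and 8882 times in TPA, which was 1.69 and 1.52 times the expectation, a log2 ratio of 0.16 (0.11 to 0.20). This was the highest of all pairs in ATRA and ranked 4 in TPA. The other pairs among the 5 highest were 16 with 22 at 0.13, 11 with 18 at 0.11, 17 with 22 at 0.10 and 11 with 20 at 0.10. Chromosome 22 was a partner in 3 of the 5 on this scale, and with the expectation from the number of bins all 3 turned, with 16 with 22 at -0.12 and 17 with 22 at -0.21. The pairs 11 with 18 and 11 with 20 stayed above 0, at 0.12 and 0.04.

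The pairs past the rule in the other direction were 16 with 21 and 18 with 20. Chromosomes 16 and 21 met at 1.37 times the expectation in ATRA and 1.56 times in TPA, a log2 ratio of -0.19 (-0.23 to -0.15). Chromosomes 18 and 20 met at 1.09 and 1.22 times, a log2 ratio of -0.17 (-0.21 to -0.13). The next were 3 with 14 at -0.14, 5 with 16 at -0.13 and 13 with 22 at -0.13. Chromosomes 3 and 14, the pair with the highest value in TPA at 1.70 times the expectation, ranked 3 in ATRA at 1.55 times. Chromosomes 16 and 21, 3 and 14, and 5 and 16 each carry joined segments, and without these segments the log2 ratios of the pairs were -0.19, -0.14 and -0.12. Only bin pairs within 4 bins of a joined pair were left out, so contacts further along the joined chromosomes stayed in. The part of the joins in these differences was not tested.

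The small gene-rich chromosomes 16, 17, 19, 20 and 22 met each other slightly more in ATRA relative to their coverage, with a median log2 ratio of 0.06 over 10 pairs and 7 of them higher, but with an expectation taken from the number of bins the median was -0.18. Over all pairs the median was 0.01. Chromosomes 19 and 22 were an exception on the scale of coverage, at -0.05 (-0.11 to -0.00058). Pairs of these chromosomes with the gene-poor chromosomes 4, 13 and 18 were lower in ATRA in 13 of 15, with a median of -0.06. The 3 pairs among chromosomes 4, 13 and 18 were all higher in ATRA, with a median of 0.06.

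The totals of the chromosomes, which an expectation from the number of bins does not carry, differed between the treatments. Chromosome 19 took part in 3.66% of contacts between chromosomes in ATRA and 4.34% in TPA, a ratio of 0.843 (0.838 to 0.847). Chromosomes 22 and 17 followed at 0.889 and 0.909, and chromosomes 16, 21 and 20 lay at 0.949, 0.951 and 0.959. The highest ratios were those of chromosomes 2, 6 and 3, at 1.04, 1.03 and 1.03.

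**Figure D3:**
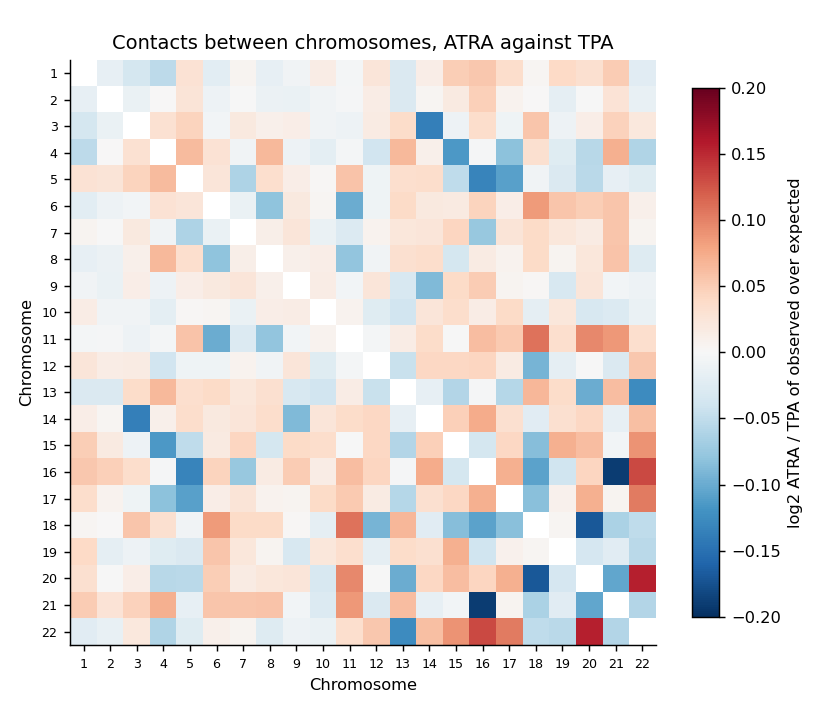
Each square is a pair of autosomes, coloured by the log2 ratio ATRA over TPA of contacts observed over expected from the coverage of each chromosome; red is higher in ATRA and blue lower. The darkest red square is chromosome 20 with 22, at 0.16, and the darkest blue squares are 16 with 21, at -0.19, and 18 with 20, at -0.17.

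Compartments were largely the same in ATRA-treated and TPA-treated cells. Each bin was given a score from the leading pattern of its contacts within the chromosome, scaled to an SD of 1 and signed so that A bins are positive. The 2 scores correlated at r = 0.891 over 5349 bins, and 88.8% of bins had the same sign in both. Bins in A made up 43.3% in ATRA and 42.2% in TPA. Chromosomes 14, 9 and 21 had the lowest correlations, 0.628, 0.740 and 0.775, and on the other 19 chromosomes r was 0.909 over 4884 bins. The highest were chromosomes 18, 19 and 22, at 0.974, 0.974 and 0.971. On chromosome 18 the score did not follow the bins' contacts with A and B on other chromosomes (r = -0.19 in ATRA and -0.22 in TPA), so its A and B labels are uncertain.

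Few bins lay clearly on opposite sides. With more than 0.5 SD asked on each side, 21 bins were in A with ATRA and in B with TPA (0.393% of bins), and 11 were in B with ATRA and in A with TPA (0.206%). Of the 11, 5 lay on chromosome 14, where the B label in ATRA is uncertain by the contacts with other chromosomes given below. On the 19 chromosomes with r of at least 0.8 the counts were 10 (0.205%) and 4 (0.0819%), and no such bins on them were adjacent. Of all bins on these chromosomes, 516 (10.6%) had opposite signs at any size.

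The bins in A with ATRA and in B with TPA with the largest difference, on those 19 chromosomes, were spread over 4 chromosomes. At 172.5 to 173 Mb of chromosome 5 the score was 1.26 in ATRA and -0.50 in TPA, just inside the limit. At 80 to 80.5 Mb of the same chromosome it was 1.09 and -0.65. At 53.5 to 54 Mb of chromosome 3 it was 0.81 and -0.71. At 41 to 41.5 Mb of chromosome 13 it was 0.78 and -0.80, and at 110 to 110.5 Mb of chromosome 4 it was 0.74 and -0.68. Just outside the limit lay 125 to 125.5 Mb of chromosome 10, at 0.84 and -0.48.

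The 4 bins that ran the other way on these chromosomes had smaller differences apart from the first. At 68 to 68.5 Mb of chromosome 13 the score was -1.20 in ATRA and 0.59 in TPA. At 69.5 to 70 Mb of that chromosome it was -0.53 and 0.59. At 104.5 to 105 Mb of chromosome 11 it was -0.55 and 0.60, and at 121 to 121.5 Mb of chromosome 8 it was -0.51 and 0.58.

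Contacts with other chromosomes, which enter the score only through balancing and the choice of its sign, gave a second reading of each bin. The A and B bins of this reading were themselves taken from the score of the sum. For every bin, contacts with A bins were set against contacts with B bins on other chromosomes, as a log2 ratio relative to the coverage of these bins. The 21 bins that were in A with ATRA and in B with TPA all had a higher log2 ratio in ATRA, with a median difference of 0.22 against 0.03 over all 5349 bins, and 12 intervals lay above 0. The difference was also above 0 in 3040 of all 5349 bins and in 1651 of the 2287 B bins, whose median was 0.08. On the 19 chromosomes the log2 ratio was higher in ATRA in 10 of 10 bins, with 4 intervals above 0. The log2 ratios of ATRA and TPA had opposite signs in 6 of the 21 bins, and in 1 of the 10. A log2 ratio of 0 does not mark the boundary of A and B. Bins within 0.5 SD of 0 in the score of the sum had medians of -0.11 in ATRA and -0.14 in TPA. Changes of side by another boundary were not counted. Of the 11 bins in B with ATRA and in A with TPA, 5 were lower in ATRA and 0 intervals lay below 0. Chromosome 14 held 5 of the 11, and the log2 ratios of all its 5 were above 0 in both matrices. At 24.5 to 25 Mb, for instance, the log2 ratio was 0.54 in ATRA and 0.50 in TPA, while the score was -0.96 and 2.02. The B label of these chromosome 14 bins in ATRA is therefore uncertain. The interval of 1 of the 11 lay above 0, against the score, at 23.5 to 24 Mb of chromosome 14 with a difference of 0.21 (0.04 to 0.38). This bin lies in a segment at 23.5 to 26 Mb joined with chromosome 3, on the chromosome with the lowest correlation of scores, 0.628. The bin at 68 to 68.5 Mb of chromosome 13 was among the 6 of the 11 that were not lower in ATRA, at -0.18 in ATRA and -0.19 in TPA.

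By contacts with other chromosomes alone, past 1.5-fold and beyond counting error, 0 bins were higher in ATRA (0% of bins) and 2 were lower (0.0374%). The first of the lower bins lies at 125.5 to 126 Mb of chromosome 8. Its log2 ratio was 0.04 in ATRA, from 991 contacts with A and 1222 with B, and 0.75 in TPA, from 1370 and 925. Its score within the chromosome was also lower in ATRA, 1.23 against 2.37, and stayed on the A side in both. The other bin, at 131 to 131.5 Mb of chromosome 2, had low coverage, with 707 contacts in ATRA and 875 in TPA, and log2 ratios of -0.62 and 0.03. Its score went the other way, at -0.08 in ATRA and -0.21 in TPA.

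At a lower limit, 0.32 on the log2 scale, 161 bins were higher in ATRA (3.01% of bins) and 116 were lower (2.17%). With each matrix scaled to its own spread the balance turned, with 88 higher and 104 lower. On the unscaled log2 values, the largest rises were at 2.5 to 3 Mb of chromosome 6, with -0.02 in TPA and 0.56 in ATRA, and at 125 to 125.5 Mb of chromosome 10, with -0.40 and 0.16. Those at 150 to 150.5 Mb of chromosome 7, 46 to 46.5 Mb of chromosome 20 and 113 to 113.5 Mb of chromosome 12 were 0.55, 0.51 and 0.50. The largest falls after the bins on chromosomes 8 and 2 were at 189 to 189.5 Mb of chromosome 3, 42 to 42.5 Mb of chromosome 13 and 39 to 39.5 Mb of chromosome 19, at -0.55, -0.54 and -0.52. Of 5349 bins, both measures called 4 from B in TPA to A in ATRA at this limit and 0 in the other direction, on unscaled values. Among the 2287 B bins the unscaled values gave 87 higher and 8 lower, and the scaled values 22 and 16. On the 19 chromosomes the bin at 115 to 115.5 Mb of chromosome 11 was called by both, with scores of 0.73 in ATRA and -0.56 in TPA and log2 ratios of 0.14 and -0.30. The rest of these bins lay on chromosomes 9 and 14, whose scores correlated at only 0.740 and 0.628.

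Runs of 3 adjacent bins past this limit numbered 7 for bins higher in ATRA and 2 for bins lower. When each matrix was scaled to its own spread, every bin was still called in 2 of the 7 and in both of the lower runs, and these are named here. The 3 bins at 149.5 to 151 Mb of chromosome 7 had a mean log2 ratio of 0.19 in ATRA and -0.24 in TPA, and those at 18 to 19.5 Mb of chromosome 16 had 0.20 and -0.17. In the other direction the 3 bins at 203.5 to 205 Mb of chromosome 1 had means of 0.34 in ATRA and 0.77 in TPA, and those at 139.5 to 141 Mb of chromosome 6 had -0.13 and 0.23. On chromosome 16 the mean score within the chromosome went the other way, at -0.10 in ATRA and 0.02 in TPA. That run also borders a segment at 15 to 18 Mb joined with chromosome 17. In the other named runs the mean scores differed in the same direction as the log2 ratios.

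**Figure D4:**
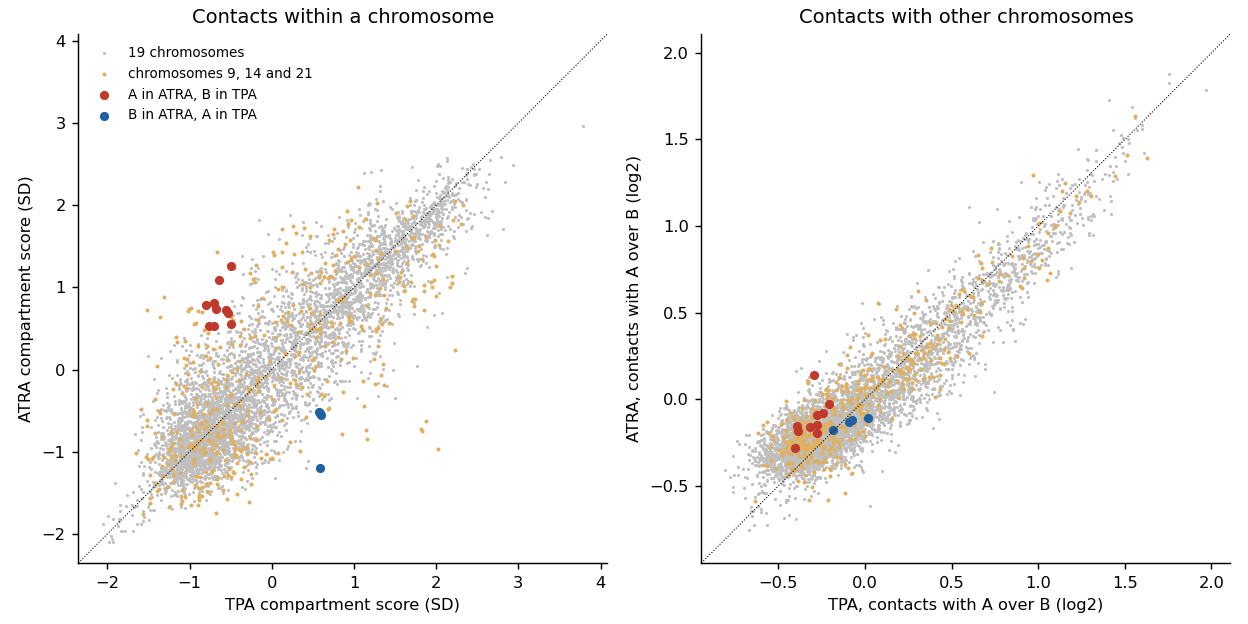
Each point is a 500 kb bin, plotted by its value in TPA (horizontal) and ATRA (vertical), for the compartment score from contacts within the chromosome (left, in SD) and for contacts with A over B bins of other chromosomes (right, log2). Red points are the 10 bins in A with ATRA and in B with TPA and blue points the 4 bins of the reverse kind on the 19 chromosomes with r of at least 0.8; on the right the red points lie above the dotted line of equal values and the cloud is flatter than that line, with a slope of 0.803.

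The separation of A from B differed in opposite directions within and between chromosomes, by measures that took different sets of bins. Saddle strength, the mean of contacts within A and within B over contacts of A with B in the top and bottom 20% of bins, was 2.97 (2.94 to 2.99) within chromosomes in ATRA and 2.70 (2.68 to 2.71) in TPA. The ratio was 1.1 (1.09 to 1.11), and 1.05 (1.04 to 1.06) with both matrices ordered by the score of their sum. Contacts of A with A stood at 1.80 times the expectation in ATRA and 1.63 in TPA, contacts of B with B at 1.39 and 1.43, and contacts of A with B at 0.537 and 0.569. In these pooled values the higher strength in ATRA lay in more A with A and fewer A with B contacts, while B with B contacts were lower. By chromosome, contacts of A with A were higher in ATRA on 18 of 22. Contacts of A with B were lower on 12 and higher on 10, and contacts of B with B lower on 13 and higher on 9.

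The chromosomes split by number. The strength ratio was above 1 on 15 chromosomes, which were 1 to 14 and 21, with 11 intervals above 1, and below 1 on the other 7, with 5 intervals below 1. The highest were chromosomes 11, 8 and 10, at 1.28, 1.19 and 1.17. On chromosome 11 strength was 4.28 in ATRA and 3.35 in TPA. The lowest were chromosomes 20, 18 and 15, at 0.770, 0.790 and 0.817. On chromosome 20 strength was 3.43 in ATRA and 4.45 in TPA. By distance, the ratio was 1.07 at 2 to 10 Mb, 1.08 at 10 to 50 Mb and 1.03 beyond 50 Mb.

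Between chromosomes the strength was lower in ATRA, 1.22 (1.217 to 1.222) against 1.29 (1.291 to 1.297), a ratio of 0.942 (0.939 to 0.945). Contacts of A with A were 1.21 times the expectation in ATRA and 1.24 in TPA, those of B with B 1.13 and 1.15, and those of A with B 0.957 and 0.925. The log2 ratio of contacts with A over B had a median of 0.27 in ATRA and 0.35 in TPA over 1719 A bins, and of -0.24 and -0.32 over 2287 B bins. Its SD over all bins was 0.373 in ATRA and 0.432 in TPA, and was lower in ATRA on 22 of 22 chromosomes. The higher mitochondrial contacts and lower share within chromosomes of ATRA go with this narrower range, and their part in it was not tested.

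Coverage, the share of all autosomal contacts that a bin took part in, was lower in ATRA over open chromatin. Past the same 0.32 on the log2 scale and beyond counting error, 2 bins were higher in ATRA (0.0374% of bins) and 50 were lower (0.935%). Of the 50, 42 were in A and 0 in B. A bins had a median log2 ratio of -0.04, with 1078 of 1719 below 0, and B bins 0.05, with 589 of 2287 below 0. The A median was below the B median on 19 of 22 chromosomes, most on chromosomes 20, 17 and 16, by -0.23, -0.22 and -0.20, and above it on chromosomes 13, 4 and 18. Across 5349 bins the log2 coverage ratio correlated with contacts with A over B in TPA at r = -0.62 and with the score of the sum at r = -0.43, descriptions across bins that share the 2 libraries.

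Chromosome 19, the most gene-dense autosome, held 27 of the 50 lower bins, which was 23.9% of its 113 bins. Its median log2 ratio was -0.22, against 0.03 over all bins, and chromosomes 22 and 17 followed at -0.10 and -0.05. The highest medians were those of chromosomes 3, 6 and 4, at 0.06, 0.06 and 0.05. On chromosome 19 all 44 A bins were below 0, with a median of -0.29, and the 51 B bins had a median of -0.12. Outside chromosome 19, 23 bins were lower past the limit, all of them in A.

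Chromosome ends stood out in the same direction. The 146 bins within 2 Mb of a chromosome end had a median of -0.14, with 120 below 0 and 17 past the limit, which was 11.6% of them. Among A bins, those near an end had a median of -0.20 and the others -0.03. Without chromosome 19, 139 bins near an end had a median of -0.13, with 13 past the limit.

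Runs of at least 3 adjacent lower bins numbered 4, and there were 0 runs of higher bins. The first 2.5 Mb of chromosome 19 held 9473 contacts in ATRA and 13634 in TPA, a ratio of shares of 0.753 (0.734 to 0.773). The run at 17 to 19.5 Mb of that chromosome held 12287 and 17282, a ratio of 0.771 (0.753 to 0.789), and that at 45 to 46.5 Mb held 7236 and 10500, a ratio of 0.747 (0.725 to 0.770). At 0.5 to 2 Mb of chromosome 11 the counts were 4209 and 5800, a ratio of 0.787 (0.756 to 0.819). All 4 runs had positive scores in both matrices. The 2 bins higher in ATRA lay beside centromere gaps, at 54.5 to 55 Mb of chromosome 11 with 2361 contacts in ATRA and 1904 in TPA, and at 62 to 62.5 Mb of chromosome 7 with 5232 and 4370.

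Contacts between and within chromosomes were also taken apart, each as a share of its own total. On this scale the deficit of these regions was larger in contacts between chromosomes. The scale leaves out the lower share within chromosomes of ATRA. The medians therefore do not divide the difference in coverage into parts, and that division was not tested. Over A bins the median log2 ratio was -0.08 for contacts between chromosomes and 0.03 for contacts within them. On chromosome 19 these medians were -0.27 and -0.08, and within 2 Mb of chromosome ends -0.20 and -0.03. Chromosome 17 had -0.15 for contacts between chromosomes and 0.06 for contacts within.

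**Figure D5:**
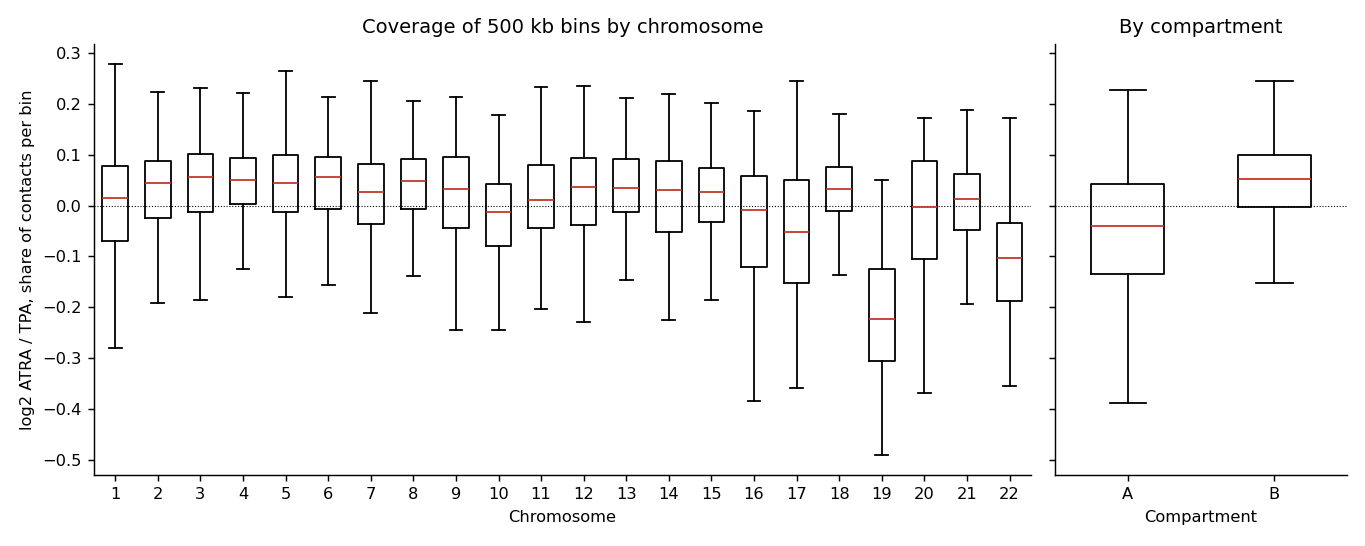
Log2 ratio ATRA over TPA of the share of contacts per 500 kb bin, by chromosome (left) and for A and B bins (right); boxes span the quartiles with the median in red, whiskers reach the last bin within 1.5 times the quartile range, and outlying bins are not drawn. Chromosome 19 lies lowest with a median of -0.22, followed by chromosome 22 at -0.10, and A bins lie below B bins with medians of -0.04 and 0.05.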

How the data were processed

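HL60 cells were crosslinked, cut with HindIII, filled in with biotin and ligated, per the labels' protocols. Alignment used Bowtie and filtering HiCUP, per the series' design text. The submitters' processing notes name HOMER 4.7 and the build hg19; the sources used here give no filter settings. As deposited by the authors, the matrices hold raw contact counts between 500 kb bins, whole numbers with no normalization. Duplicate or otherwise non-independent read pairs that remained would make counting intervals too narrow.

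Both matrices were analysed in Python 3.11.15 with numpy 2.4.6 and scipy 1.17.1. Counts on the diagonal were divided by 2, since each contact within a bin is entered from both ends. Shares carry exact binomial intervals, differences of shares Newcombe intervals, and ratios intervals on the log scale, all at 95%. Bins under 0.2 times the median coverage in either matrix were left out of compartment and coverage comparisons. For compartments each matrix was balanced in 60 iterations and divided by the mean at each distance, and the leading eigenvector that did not follow the arms was taken per chromosome. Its sign followed contacts with chromosome 19 in the sum of both matrices (for chromosome 19, contacts with 17 and 22). A and B bins are past 0.5 SD in the sum of the ATRA and TPA matrices. Saddle strength took bin pairs over 1 Mb apart. Joined segments needed 15 contacts in the sum at 10 times the expectation, with 5 or more bin pairs, and were left out of contacts with A and B on other chromosomes. Expected contacts of chromosome pairs came from iterative proportional fitting. The functions for compartments, contacts with other chromosomes, coverage and pairs were tested on simulated data of chromosomes 15 to 22. The simulated matrices had more counts per bin pair than the real ones, so recovery of single bins at the real depth was not tested.

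Regions and chromosomes named are the 5 largest differences in each direction for bins and pairs, the 3 highest and lowest chromosomes, bins called by both measures and the longest runs; a few others were named after their values were seen. The members and lists were chosen with earlier results of these data known. No hg19 gene annotation was used here, so genes were not placed in bins. Alternatives covered the diagonal, chromosome X, joined segments, balancing, coverage minimum, limits and scaling, and the closing section gives their effect.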

Additional observations from a re-analysis of the deposited data

How the results depend on the processing

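Of 58 alternatives over 13 results, 24 left the value within its counting interval, equal at 2 decimals where it has none, or a count within 1.5 times; 33 moved it and 1 reversed it. No paired analysis was possible because each treatment has 1 matrix, in which the 2 TPA libraries are merged; for the same reason neither library could be left out. The difference in the share within chromosomes was -5.07 points with the diagonal as deposited and -4.25 without contacts inside a bin. The difference in the share under 2 Mb was 1.58 points with balanced contacts and 0.116 with contacts inside a bin included, and the difference in slope at 1 to 10 Mb was -0.049 with balanced contacts. With the expectation from the number of bins, 46 chromosome pairs passed 1.1-fold in place of 3, and the median of pairs among chromosomes 16, 17, 19, 20 and 22 was -0.18; without joined segments it was 0.0469, and 0 pairs passed 0.32 on the log2 scale.

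The correlation of scores was 0.909 without chromosomes 9, 14 and 21, 0.727 with raw contacts and 0.897 at a minimum of 0.5 times the median coverage. Bins in A with ATRA and in B with TPA numbered 10 without chromosomes 9, 14 and 21, 122 with raw contacts, 91 past 0.25 SD and 0 past 1 SD. The reverse kind numbered 4, 86, 66 and 0 under the same settings and 23 with an eigenvector per arm. The saddle ratio was 1.19 with raw contacts, 1.11 with the top and bottom 10% of bins and 1.05 with the score of the sum. Leaving out chromosome 18, chosen after seeing the data, left these 4 results within the same limits.

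By contacts with A on other chromosomes, 19 bins were higher and 23 lower in ATRA with reference bins past 1 SD, 161 and 116 past 0.32 on the log2 scale, and 2 were higher with each matrix scaled to its own SD. Scaling at the 0.32 limit as well gave 88 higher and 104 lower. With reference bins off chromosomes 9, 14, 18 and 21, also chosen after seeing the data, 2 were higher. Bins with lower coverage in ATRA numbered 192 by contacts between chromosomes alone and 84 centred on the median bin, and 0 bins passed 1.5-fold in either direction. The cause of each of these moves was not tested. At a median of 3286 and 3488 contacts per bin, a difference of a single bin that lies within its counting interval was not detectable.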
